A study of Aquarana catesbeiana with 18 samples.

Results

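The mitosis genes described here are TOP2A, TPX2, NUSAP1, AURKB, BUB1, CDC20, CDK1, CCNA2, MAD2L1 and CDCA5, taken by their symbols as 10 of the 24636 genes of a count table from bullfrog tissues. RNA was sequenced from eyes, back skin and liver of albino and wild-type American bullfrogs (Aquarana catesbeiana), with 3 libraries in each of 6 groups: albino eyes, wild-type eyes, albino skin, wild-type skin, albino liver and wild-type liver. The genotype labels read "abino" and wild-type, and the series title speaks of albino bullfrogs. The labels give no mutation, age or treatment for these libraries, and they do not say whether the 3 libraries of a group come from separate animals, so p-values measure only the spread between these libraries, which may be technical. Levels are the deposited FPKM (fragments scaled to gene length and to the counted reads of the library), and log2 differences come from read counts scaled by TMM, a normalization that assumes most genes do not differ. A gene is called when its adjusted p from edgeR's quasi-likelihood test with Benjamini-Hochberg adjustment over all genes tested is below 0.05.

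A cell enters mitosis when cyclin-dependent kinase 1 is bound by a cyclin and activated. Chromosomes are then untangled and condensed, captured by spindle microtubules at their kinetochores, and held by the spindle checkpoint until all are attached. CDC20 next switches on the anaphase-promoting complex, which marks cyclins and securin for destruction so that sister chromatids part. Most of these genes are transcribed in a burst late in the cycle, so that in a tissue of mostly resting cells their RNA comes largely from the few that divide. The roles given below are known mainly from human and mouse cells, yeast and Xenopus egg extracts.

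Total counts lay between 34.3 and 36.4 M per library in eyes, between 35.7 and 36.8 M in skin and between 38.3 and 39.2 M in liver. Marker genes fitted the labelled tissues: 12 photoreceptor and retina genes took between 1.14% and 2.73% of the counts in eye libraries, and at most 0.0107% in skin or liver libraries. Lens genes set the eye libraries apart. The 9 lens genes in the table, none of them at 0 in either group, summed to 30.0, 25.6 and 36846 CPM (counts scaled to the library total) in albino eyes 1, 2 and 3, against 56252, 87927 and 63097 CPM in wild-type eyes. Albino eyes 1 and 2 thus held almost no lens RNA, and the eye counts below are also given for albino eye library 3 alone.

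In eyes, all 10 mitosis genes were lower in albino than in wild-type libraries. Each was called lower, where 6.1% of the 17817 genes tested were called lower. In each of the 10, the highest albino library lay below the lowest wild-type library, which held for 8.33% of all genes. The log2 differences ran from -3.05 for NUSAP1 to -0.89 for AURKB, with a median of -2.14, beside a median of 0.01 over all genes tested. TOP2A, TPX2, NUSAP1 and CCNA2 were the 4 most strongly reduced, between 7.53-fold and 8.29-fold, while AURKB, BUB1 and CDC20 were reduced by between 1.85-fold and 2.21-fold. In a bulk sample, fewer dividing cells and less of this RNA per cell cannot be told apart.

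**Figure D1:**
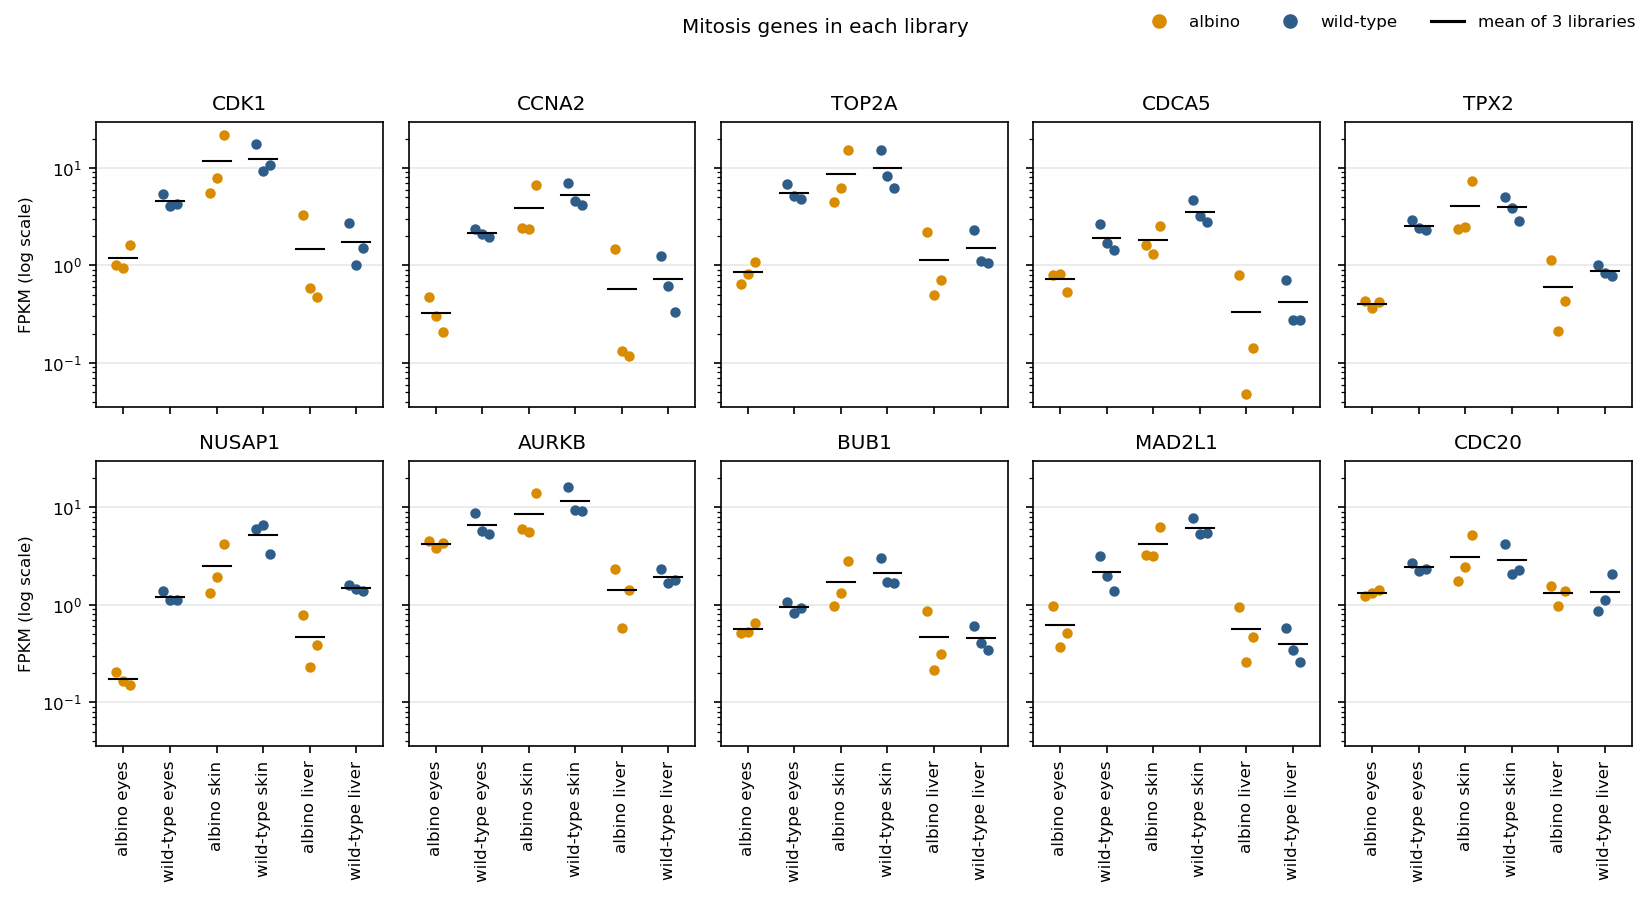
FPKM of the 10 mitosis genes in every library, on a log scale, 1 panel for each gene; points are libraries 1, 2 and 3 from left to right and the bar is the mean of 3. In eyes each albino library lies below each wild-type library in all 10 panels, while albino and wild-type liver libraries overlap in all panels but that of NUSAP1.

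CDK1, the kinase that drives entry into mitosis, was measured at 1.01, 0.952 and 1.62 FPKM in albino eyes, against 5.42, 4.10 and 4.30 FPKM in wild-type eyes. The groups were well apart, and the log2 difference was -2.20 ± 0.29 (SE, n = 3 libraries per group; edgeR adjusted p = 0.00609). CCNA2, cyclin A2, a partner of CDK1 and CDK2 in S phase and early mitosis, stood at 0.470, 0.302 and 0.208 FPKM in albino eyes, against 2.34, 2.10 and 1.98 FPKM in wild-type eyes. Its fall was larger, with a log2 difference of -2.99 ± 0.36 (edgeR adjusted p = 0.00448), but rested on only 13 to 28 reads per albino library, against 125 to 148 per wild-type library. The germline cyclin CCNA1 had 0 reads in all 3 albino eye libraries, against 6, 1 and 2 reads in wild-type eyes, and was too low to test. CDK2, the S-phase kinase related to CDK1, averaged 0.310 ± 0.195 FPKM in albino eyes and 0.957 ± 0.240 FPKM in wild-type eyes (SD, n = 3 each). Its log2 difference of -1.88 ± 0.58 was not called (edgeR adjusted p = 0.0754).

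TOP2A, the topoisomerase that disentangles DNA before chromatids separate, was at 0.645, 0.826 and 1.10 FPKM in albino eyes, against 6.84, 5.17 and 4.76 FPKM in wild-type eyes. It was the most abundant of the strongly reduced genes, with 127 to 226 reads per albino library and 996 to 1428 per wild-type library, and its log2 difference was -2.97 ± 0.24 (edgeR adjusted p = 0.000904). TOP2B, the related enzyme that resting cells such as neurons also make, was reduced too, but less, at 9.54 ± 1.28 FPKM in albino eyes and 13.9 ± 2.25 FPKM in wild-type eyes (SD, n = 3 each). Its log2 difference was -0.82 ± 0.16 (edgeR adjusted p = 0.0227). CDCA5, or sororin, which keeps sister chromatids joined by guarding cohesin, had 0.797, 0.823 and 0.537 FPKM in albino eyes, against 2.63, 1.70 and 1.43 FPKM in wild-type eyes. The groups did not overlap, and the log2 difference was -1.68 ± 0.33 (edgeR adjusted p = 0.0218). CDCA5 overlaps ZFPL1 in the RefSeq annotation, and no source used here states strandedness, so reads of the pair may not be told apart. ZFPL1 averaged 16.2 ± 1.38 FPKM in albino eyes and 13.3 ± 1.24 FPKM in wild-type eyes and was not called.

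Of the spindle proteins, TPX2, which nucleates microtubules around chromosomes and activates Aurora A, was at 0.429, 0.370 and 0.422 FPKM in albino eyes, against 2.95, 2.41 and 2.28 FPKM in wild-type eyes. Its libraries agreed closely within each genotype, and the log2 difference was -2.91 ± 0.24 (edgeR adjusted p = 0.00103). NUSAP1, which bundles spindle microtubules near chromatin, had 0.206, 0.165 and 0.151 FPKM in albino eyes, against 1.39, 1.11 and 1.11 FPKM in wild-type eyes. It was the least abundant of the 10 in albino eyes and the one with the largest log2 difference, -3.05 ± 0.28 (edgeR adjusted p = 0.00132). NUSAP1 overlaps an uncharacterised locus in the annotation whose reads were not analysed here.

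AURKB, the kinase of the chromosomal passenger complex that corrects wrong microtubule attachments, was the most abundant of the 10 in both eye groups. It was at 4.49, 3.83 and 4.34 FPKM in albino eyes, against 8.68, 5.63 and 5.30 FPKM in wild-type eyes. This was the smallest fall of the 10, with a log2 difference of -0.89 ± 0.19 (edgeR adjusted p = 0.0286). Its relative AURKA, the kinase of spindle poles, averaged 0.411 ± 0.0404 FPKM in albino eyes and 0.610 ± 0.159 FPKM in wild-type eyes (SD, n = 3 each). The AURKA groups overlapped and the gene was not called.

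The 3 genes of the spindle checkpoint and its target differed in size. BUB1, a kinetochore kinase of the checkpoint, was at 0.513, 0.519 and 0.651 FPKM in albino eyes, against 1.08, 0.824 and 0.927 FPKM in wild-type eyes. Its log2 difference of -1.01 ± 0.24 had the largest adjusted p of the 10 (edgeR adjusted p = 0.0379). MAD2L1, the checkpoint protein that binds and holds CDC20, had 0.970, 0.367 and 0.509 FPKM in albino eyes, against 3.18, 1.96 and 1.39 FPKM in wild-type eyes. The fall was steeper but the libraries of both groups were more scattered, with a log2 difference of -2.08 ± 0.47 (edgeR adjusted p = 0.0324) and 16 to 40 reads per albino library. CDC20, the activator of the anaphase-promoting complex, was at 1.22, 1.31 and 1.40 FPKM in albino eyes, against 2.66, 2.21 and 2.35 FPKM in wild-type eyes, a log2 difference of -1.15 ± 0.22 (edgeR adjusted p = 0.0217).

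The remaining relatives did not move alike. FZR1, the activator that takes over from CDC20 late in mitosis and keeps the complex active in resting cells, averaged 12.6 ± 1.45 FPKM in albino eyes and 10.1 ± 0.873 FPKM in wild-type eyes (SD, n = 3 each), with a log2 difference of 0.04 ± 0.12. MAD2L2, which resembles MAD2L1 but also serves DNA repair, averaged 17.9 ± 2.02 FPKM in albino eyes and 11.9 ± 2.37 FPKM in wild-type eyes, with a log2 difference of 0.32 ± 0.14. BUB1B, the checkpoint relative of BUB1, averaged 0.545 ± 0.157 FPKM in albino eyes and 0.971 ± 0.384 FPKM in wild-type eyes. Its log2 difference was -1.07 ± 0.35, close to the -1.01 ± 0.24 of BUB1. None of these 3 was called (edgeR adjusted p = 0.843, 0.171 and 0.0871 in the order given). Whether a relative differed from its mitosis gene in its genotype difference was not tested.

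The count of 10 is sensitive to the libraries used. It was 6, 5 and 6 without albino eyes 1, 2 and 3, and 6, 5 and 8 without wild-type eyes 1, 2 and 3, all lower. Counting per library total instead of TMM left 7 of the 10 called lower, while over all genes it gave 2284 higher and 623 lower calls, against 909 higher and 1086 lower under TMM, as the median of all genes moved to 0.28. With albino eye library 3, the one rich in lens RNA, set alone against the wild-type eyes, all 10 log2 differences were still negative, between -3.58 and -0.76, and only TOP2A was called (-2.58, edgeR adjusted p = 0.0350), while 62 of the 18925 genes tested in that fit were called.

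The 10 genes summed to 22.5, 21.1 and 24.8 CPM in albino eyes 1, 2 and 3, against 95.3, 70.9 and 67.3 CPM in wild-type eyes. The lens sums of the same albino libraries were 30.0, 25.6 and 36846 CPM. None of the 9 lens genes was called, and their median log2 difference was -3.74. A few genes of other marker lists were called, in a comparison in which 909 of 17817 genes were called higher. Of 12 photoreceptor and retina genes, ARR3 and RPE65 were called higher in albino eyes, and of 13 skeletal muscle genes TNNC2 was. F2 of the 4 hepatocyte genes tested, KRT18 of the 10 skin epithelium genes and RHAG of the 11 erythroid genes were also called higher. These 5 lists had median log2 differences of 0.25, 0.87, 0.30, 0.09 and 0.38 in the order given. In the same order 2, 3, 2, 4 and 4 of their genes had negative differences. Of the 11 macrophage and granulocyte genes tested, CSF1R (-1.24 ± 0.29) and LYZ (-1.24 ± 0.29) were called lower. The median of the 11 was -0.42, and 3 had positive differences. The 12 macrophage and granulocyte genes in the table, none at 0 in either group, summed to 276, 153 and 143 CPM in albino eyes 1, 2 and 3. In wild-type eyes 1, 2 and 3 they summed to 282, 127 and 126 CPM. Skeletal muscle genes summed to between 4869 and 10384 CPM in albino eyes and between 1470 and 4220 CPM in wild-type eyes. The 14 lymphocyte genes, whose cells can divide, summed to between 12.1 and 22.7 CPM in albino eyes, with RAG1 at 0, and between 16.7 and 32.5 CPM in wild-type eyes, and none of the 12 tested was called, with a median of -0.66. The part of these cell types in the mitosis result was not tested.

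**Figure D2:**
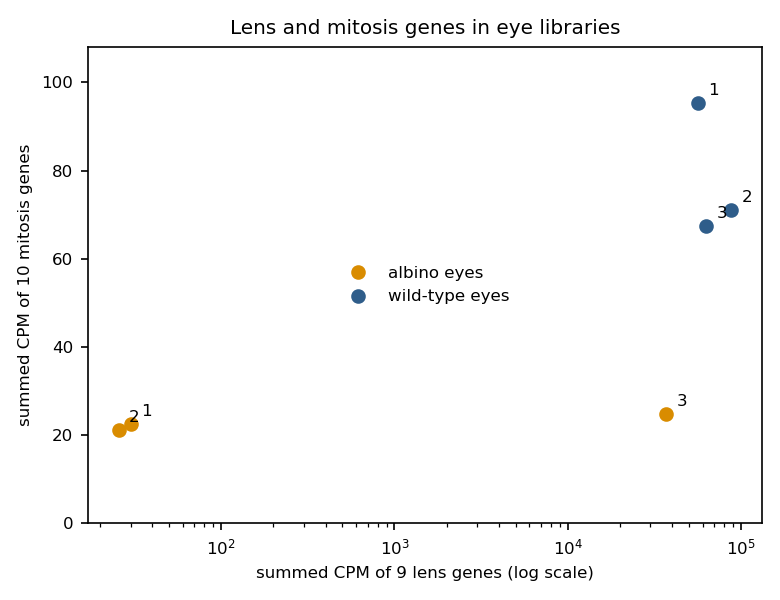
Summed CPM of the 10 mitosis genes (vertical axis) against summed CPM of 9 lens genes (horizontal axis, log scale) in the 6 eye libraries, numbered by replicate. Albino eye library 3 has a lens sum of 36846 CPM, below the lowest wild-type sum of 56252 CPM, and a mitosis sum of 24.8 CPM. Albino eyes 1 and 2 have lens sums of 30.0 and 25.6 CPM and mitosis sums of 22.5 and 21.1 CPM. The part of lens RNA in the mitosis sums was not tested.

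The other cell cycle genes were examined in 7 lists, for which 134 of 146 symbols were in the table. In eyes 50 of the 132 tested were called lower and 0 higher, in a comparison in which 6.1% of all genes were called lower, with 113 log2 differences negative and a median of -1.01. Spindle and cytokinesis genes were called lower in 17 of 25 cases, with a median of -1.79. The 3 with the smallest p were KIF11, the motor that pushes spindle poles apart, at 0.434 ± 0.0634 FPKM in albino eyes and 2.14 ± 0.628 FPKM in wild-type eyes (log2 difference -2.55 ± 0.25), ASPM, a spindle pole protein (-3.38 ± 0.36), and RACGAP1, a subunit of centralspindlin that guides cleavage (-2.43 ± 0.27). Kinetochore and checkpoint genes were called lower in 6 of 21 cases, with a median of -1.43. They were led by SPC24 (-1.55 ± 0.25), KNL1 (-2.78 ± 0.45) and NUF2 (-2.70 ± 0.49), all parts of the outer kinetochore that grips microtubules. Several of the largest falls were in genes of low level. KNL1 averaged 0.0267 FPKM in albino and 0.154 FPKM in wild-type eyes, NUF2 0.108 and 0.585 FPKM, and ASPM 0.0460 and 0.395 FPKM. All of these log2 differences are given relative to the TMM scaling described above, and n is 3 libraries per group.

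Chromosome structure and cohesion genes were called lower in 9 of 20 cases, with a median of -0.99. SMC4 (-2.27 ± 0.32), SMC2 (-2.05 ± 0.31) and NCAPD2 (-1.58 ± 0.24), subunits of condensin, which compacts chromosomes, had the smallest p. Mitotic kinases, cyclins and switch genes were called lower in 5 of 17 cases, with a median of -0.84, and in 0 to 2 cases on leaving out any 1 of the 6 eye libraries. PLK1, a kinase needed for spindle assembly and mitotic exit, stood at 0.944 ± 0.425 FPKM in albino eyes and 3.16 ± 1.08 FPKM in wild-type eyes (SD, n = 3 each), a log2 difference of -2.01 ± 0.40. CDC25A, a phosphatase that activates cyclin-dependent kinases, fell by 2.42 on the log2 scale, and CCNB3, a B-type cyclin, by 1.99. CDC25A averaged 0.115 FPKM in albino and 0.515 FPKM in wild-type eyes, and CCNB3 0.270 and 0.895 FPKM. Replication and G1/S genes were called lower in 10 of 26 cases, with a median of -0.92, led by TK1, thymidine kinase (-2.67 ± 0.22), and by MCM5 (-1.999 ± 0.17) and MCM2 (-2.19 ± 0.21), both subunits of the replicative helicase. The total of 50 was 31, 24 and 35 without albino eyes 1, 2 and 3, and 42, 28 and 37 without wild-type eyes 1, 2 and 3. The 6 kinetochore calls were 2 without albino eyes 1, 0 without albino eyes 2 and 2 without wild-type eyes 2. The 17 spindle calls were 10 without albino eyes 2, 10 without wild-type eyes 2 and 11 without wild-type eyes 3, and the 9 chromosome calls were 4 without albino eyes 2 and 5 without wild-type eyes 2.

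The 2 remaining lists had medians close to 0. Of 14 genes of the mitotic exit ubiquitin system, with a median of 0.01, only UBE2C was called lower, in a comparison in which 6.1% of all genes were. UBE2C was at 1.86 ± 0.804 FPKM in albino eyes and 6.62 ± 0.980 FPKM in wild-type eyes (SD, n = 3 each). Its log2 difference was -2.08 ± 0.37 (edgeR adjusted p = 0.0158). UBE2C is the ubiquitin-conjugating enzyme that works with the anaphase-promoting complex. CDC27, a core subunit, had a log2 difference of -0.36 ± 0.13, and FBXO5, an inhibitor of the complex, one of -1.03 ± 0.41, and neither was called. Of 9 inhibitors of division, with a median of -0.08, CDKN1A and GADD45A were called lower and 0 were called higher. CDKN1A, the p21 inhibitor induced by p53 and by stress, averaged 2.13 ± 0.221 FPKM in albino eyes and 8.33 ± 0.329 FPKM in wild-type eyes (SD, n = 3 each), with a log2 difference of -2.25 ± 0.17 (edgeR adjusted p = 0.000651). GADD45A, a stress-induced growth arrest gene, averaged 10.4 ± 0.997 FPKM in albino eyes and 33.8 ± 10.1 FPKM in wild-type eyes, with a log2 difference of -2.003 ± 0.30. RB1, the retinoblastoma protein, had a log2 difference of -1.01 ± 0.27 and was not called (edgeR adjusted p = 0.0504). With albino eye library 3 alone, 0 of these listed genes were called by edgeR.

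**Figure D3:**
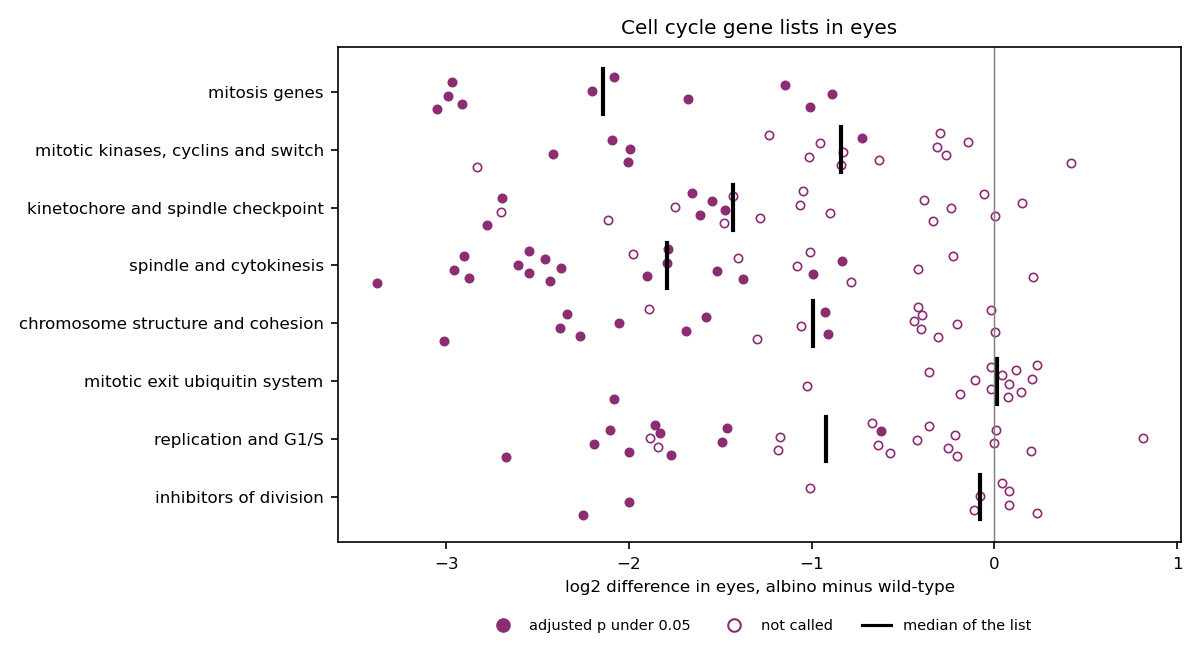
Log2 difference of albino minus wild-type eyes for the 10 mitosis genes and for each tested gene of the 7 other cell cycle lists; filled points were called (adjusted p under 0.05), open points were not, and the vertical bar is the median of the list. The mitosis genes have a median of -2.14 and the spindle and cytokinesis list one of -1.79, while the lists of mitotic exit ubiquitin genes and inhibitors have medians of 0.01 and -0.08.

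In skin none of the 10 mitosis genes was called between genotypes, in a comparison in which 0.0946% of 16921 genes were called. On simulated skin data the test called 0% of genes given a log2 change of 1 in size and 29.8% of those given 2. The lack of calls thus does not show that these genes are unchanged. The levels of albino and wild-type skin overlapped in 9 of the 10, and the median log2 difference was -0.37, with 8 negative and 2 positive. Spread within each genotype was wide, and it was shared: albino skin 3 was the highest albino library for all 10 genes and wild-type skin 1 the highest wild-type library for 9. The 10 genes summed to 71.6, 88.4 and 217 CPM in albino skin, against 221, 139.8 and 113.7 CPM in wild-type skin. The topmost albino library was thus level with the topmost wild-type library, while albino skin 1 and 2 were below every wild-type one.

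CDK1 shows this spread, at 5.50, 7.85 and 21.8 FPKM in albino skin, against 17.4, 9.19 and 10.8 FPKM in wild-type skin, with a log2 difference of -0.11 ± 0.47. TOP2A was at 4.44, 6.18 and 15.2 FPKM in albino skin, against 15.2, 8.30 and 6.16 FPKM in wild-type skin, with a log2 difference of -0.18 ± 0.43. The albino span of CDK1 took in all 3 wild-type values, and the TOP2A spans reached about the same highest value. The lowest unadjusted p were those of NUSAP1 and CDCA5, the 2 genes with an unadjusted p below 0.05 by edgeR, a level that 13% of all genes reached. NUSAP1 was at 1.33, 1.92 and 4.16 FPKM in albino skin, against 5.92, 6.51 and 3.28 FPKM in wild-type skin (log2 difference -1.07 ± 0.37, edgeR adjusted p = 0.305). CDCA5 was at 1.62, 1.30 and 2.53 FPKM in albino skin, against 4.67, 3.18 and 2.82 FPKM in wild-type skin (log2 difference -0.92 ± 0.34, edgeR adjusted p = 0.329). CDCA5 was the only one of the 10 whose skin groups did not overlap, which held, with albino lower, for 8.2% of all genes.

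The other 6 had skin log2 differences between -0.53 ± 0.33 for MAD2L1 and 0.13 ± 0.42 for CDC20, with AURKB at -0.42 ± 0.37, CCNA2 at -0.44 ± 0.41, BUB1 at -0.33 ± 0.39 and TPX2 at 0.07 ± 0.42. TPX2 was at 2.39, 2.49 and 7.36 FPKM in albino skin, against 5.02, 3.93 and 2.86 FPKM in wild-type skin, so that a single albino library exceeded all others. DESeq2 and limma also called 0 of the 10. Of the 133 other cell cycle genes tested in skin, 0 were called by edgeR, and their median log2 difference was -0.25. The replication and G1/S list had the lowest median, -0.58, with 24 of 27 differences negative. In that list 10 genes had an unadjusted p below 0.05 by edgeR, a level that 13% of all genes reached. At most 3 genes of any other list reached it. Lymphocyte genes had a median log2 difference of -0.98 in skin, with 0 of 12 called. They summed to 36.8, 41.1 and 15.0 CPM in albino skin 1, 2 and 3, against 101, 51.0 and 37.1 CPM in wild-type skin. Albino skin 3, the highest albino library for the mitosis genes, was thus the lowest for lymphocyte genes. In wild-type skin, library 1 was the highest and library 3 the lowest for both sums. The part of lymphocytes in the spread was not tested.

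In liver none of the 10 was called either, where 5.76% of 14990 genes were, 429 higher and 435 lower. With library totals the liver calls over all genes were 243 higher and 939 lower. The median log2 difference was -0.14, with 7 negative and 3 positive. As in skin the spread was shared, since albino liver 1 was the highest albino library for all 10 genes and wild-type liver 1 the highest wild-type library for 9. The 10 genes summed to 38.0, 9.24 and 14.4 CPM in albino liver, against 37.3, 23.5 and 24.6 CPM in wild-type liver. CDK1 was at 3.31, 0.594 and 0.469 FPKM in albino liver, against 2.70, 1.01 and 1.50 FPKM in wild-type liver, and its log2 difference was -0.02 ± 0.74, with a standard error of 0.74 against 0.29 in eyes. CCNA2 had 98, 9 and 8 reads in albino liver, against 84, 41 and 22 in wild-type liver, and CDCA5 had 50, 3 and 9 reads in albino liver, against 44, 17 and 17 in wild-type liver.

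NUSAP1 was the gene nearest to a call in liver. It was at 0.781, 0.232 and 0.381 FPKM in albino liver, against 1.59, 1.44 and 1.37 FPKM in wild-type liver. It was also the only one of the 10 whose liver groups did not overlap, which held, with albino lower, for 28.1% of all genes. The log2 difference was -1.41 ± 0.36 (unadjusted p = 0.00362, edgeR adjusted p = 0.0563), and 22.5% of all genes had an unadjusted p below 0.05. NUSAP1 was called in 8 of 17 alternatives: DESeq2, limma with 1 or 0.1 added and the filter on low values, and edgeR with library totals, no filter, the replicate block, 1 fit of all 18 libraries or without albino liver 1. None of the other 9 genes was called in any of these. MAD2L1 had the largest positive difference, 0.72 ± 0.56, from 0.946, 0.258 and 0.466 FPKM in albino liver, against 0.582, 0.344 and 0.260 FPKM in wild-type liver. Since log2 differences are on the TMM scale and FPKM on library totals, the 2 can point in different directions, as for CDC20, with a log2 difference of 0.22 ± 0.34 but 1.30 ± 0.301 FPKM in albino liver and 1.35 ± 0.631 FPKM in wild-type liver (SD, n = 3 each). The other 6 had differences between -0.34 ± 0.50 for TPX2 and 0.27 ± 0.48 for BUB1. Of the 126 other cell cycle genes tested in liver, 1 was called higher and 1 lower, where 5.76% of all genes were called. CCNE1, a G1/S cyclin, was the higher one (2.01 ± 0.40, edgeR adjusted p = 0.0277). WEE1, the kinase that restrains CDK1, was the lower one (-0.83 ± 0.18, edgeR adjusted p = 0.0331). Over the alternatives, CCNE1 and WEE1 between them lost their call 11 times. In albino liver 1, 2 and 3 macrophage and granulocyte genes summed to 937, 508 and 512 CPM. In wild-type liver 1, 2 and 3 they summed to 1892, 1104 and 1003 CPM. Lymphocyte genes summed to 160, 73.2 and 99.1 CPM in albino liver, against 292, 178 and 209 CPM in wild-type liver. Their median log2 difference was -0.69, with 0 of 13 called. In each genotype the lymphocyte sums ranked the libraries as the mitosis sums did, and library 1 was highest for both marker lists. The part of these cell types in the liver values was not tested.

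**Figure D4:**
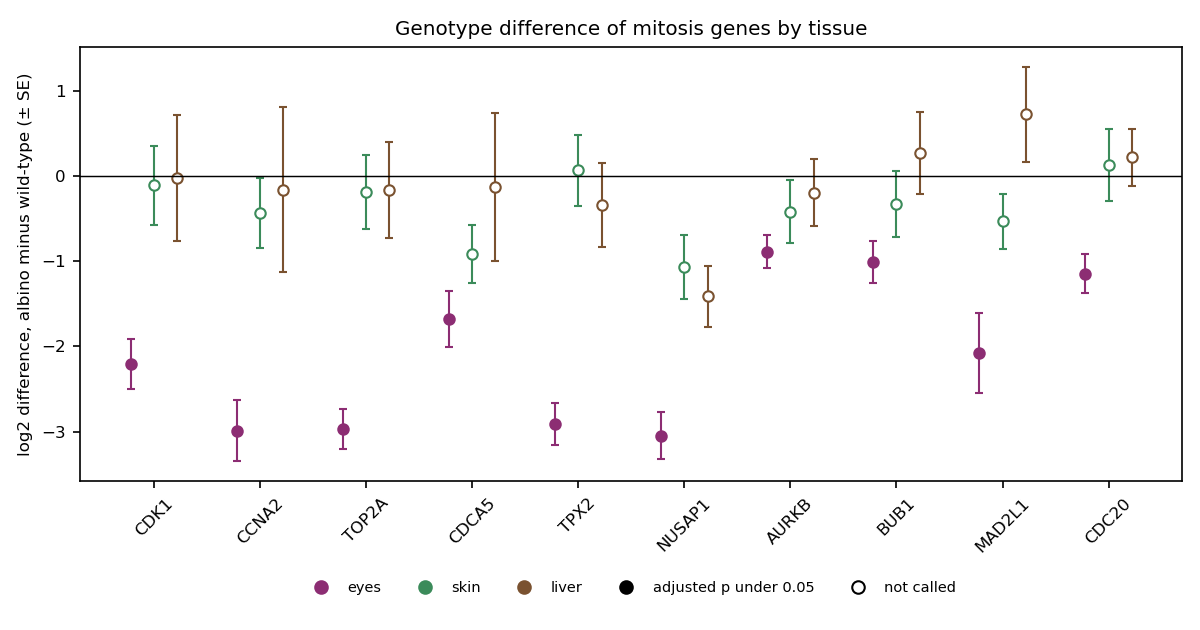
Log2 difference of albino minus wild-type for the 10 mitosis genes in eyes, skin and liver; points are estimates from edgeR, bars are ± 1 SE, and filled points were called (adjusted p under 0.05). All 10 eye points are called and lie at or below -0.89, while no skin or liver point is called.

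A genotype difference that is called in eyes and not in skin or liver is not thereby shown to differ, so the tissues were compared in how far genotype changed each gene. For eyes minus liver all 10 estimates were negative, and 2 of 10 were called, TOP2A at -2.83 ± 0.67 (edgeR adjusted p = 0.0453) and TPX2 at -2.60 ± 0.61 (edgeR adjusted p = 0.0395), where 3.42% of 19128 genes were called. For eyes minus skin all 10 estimates were again negative, and the called genes were again TOP2A at -2.79 ± 0.55 (edgeR adjusted p = 0.0404) and TPX2 at -2.98 ± 0.51 (edgeR adjusted p = 0.0256), where 0.991% of 19477 genes were called. The 2 tests share the eye libraries. The next smallest adjusted p were those of MAD2L1 for eyes minus liver (0.0667) and of CCNA2 for eyes minus skin (0.0608), and AURKB had the estimates nearest to 0, -0.72 ± 0.48 and -0.47 ± 0.45 (edgeR, not called). For skin minus liver edgeR called 0 of 10 and found 0 with an unadjusted p below 0.05, a level that 9.71% of all genes reached, and 0.27% of 18153 genes were called. DESeq2 and limma called 0 of 10 there too.

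These tissue differences depended on the fit and on single libraries. Replicate numbers were read as pairing albino eyes with albino liver and both genotypes' eyes with their skin, as described with the processing. With the replicate as a block neither TOP2A (edgeR adjusted p = 0.0718) nor TPX2 (edgeR adjusted p = 0.0550) was called for eyes minus liver, and MAD2L1 was (-2.81, edgeR adjusted p = 0.0294). For eyes minus skin both were called with the block, and CDK1 was as well (-2.00, edgeR adjusted p = 0.0407). With library totals TOP2A and TPX2 were not called for eyes minus liver (edgeR adjusted p = 0.0588 and 0.0610) or for eyes minus skin (0.104 and 0.0716), and 1 fit of all 18 libraries called neither for eyes minus liver (0.0622 and 0.0612). For eyes minus liver the count was 0 on leaving out any 1 of the 6 eye libraries or wild-type liver 2. It was 1 without albino liver 3, where TOP2A was called, and 1 without wild-type liver 3, where the gene called was CDC20 (edgeR adjusted p = 0.0350) and neither TOP2A nor TPX2 was. For eyes minus skin it was 0 without albino eyes 1, albino eyes 2, wild-type eyes 2, wild-type eyes 3 or wild-type skin 3, and 1, TPX2, without wild-type eyes 1, albino skin 3 or wild-type skin 2. With albino eye library 3 alone it was 0 for both, with edgeR.

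Across tissues, all 10 genes had their highest mean FPKM in skin, in both genotypes. In albino frogs CDK1, CCNA2, TOP2A, TPX2 and NUSAP1 had their lowest mean in eyes, as for TOP2A with 0.856 ± 0.227 FPKM in albino eyes, 8.59 ± 5.75 FPKM in albino skin and 1.14 ± 0.928 FPKM in albino liver. Of these 5, only NUSAP1 had albino eye libraries that did not overlap those of albino liver. The other 5 were lowest in albino liver by mean FPKM, with AURKB at 4.22 ± 0.343 FPKM in albino eyes and 1.43 ± 0.868 FPKM in albino liver. CDC20 was nearly level, at 1.31 FPKM in albino eyes and 1.30 FPKM in albino liver. FPKM is on library totals, and under TMM only AURKB had a positive log2 difference for albino eyes against liver (0.03). BUB1 (-1.26) and CDC20 (-1.55) were called lower in albino eyes there. In wild-type frogs 9 of the 10 came next in eyes and then in liver, as for CDK1 with 4.61 ± 0.716 FPKM in wild-type eyes, 12.5 ± 4.37 FPKM in wild-type skin and 1.74 ± 0.871 FPKM in wild-type liver (SD, n = 3 each). The exception was NUSAP1, with 1.20 ± 0.164 FPKM in wild-type eyes and 1.46 ± 0.111 FPKM in wild-type liver, whose libraries overlapped.

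In albino skin only TOP2A (1.69 ± 0.59) and MAD2L1 (1.71 ± 0.48) were called higher than in albino liver, where 24% of 16920 genes were. Replicate numbers were read as pairing the albino skin and liver libraries, as described with the processing. With the replicate as a block 4 were called, AURKB and TPX2 being added. Without the block, the count of 2 was 0 without albino skin 3, albino liver 2 or albino liver 3, and 9 without albino liver 1, the albino liver library with the most RNA of these genes. In FPKM all 10 were higher in each albino skin library than in any albino liver library, which held for 67.2% of all genes. In wild-type skin 9 of the 10 were called higher than in wild-type liver, where 25.3% of 16919 genes were called higher. The largest difference was that of MAD2L1, with 7.70, 5.31 and 5.42 FPKM in wild-type skin, against 0.582, 0.344 and 0.260 FPKM in wild-type liver (log2 difference 3.03 ± 0.40, edgeR adjusted p = 0.000826). NUSAP1 had the smallest called difference, 0.89 ± 0.22, and CDC20 was not called at 0.16 ± 0.40. CDC20 was at 4.21, 2.05 and 2.29 FPKM in wild-type skin, against 0.869, 1.13 and 2.07 FPKM in wild-type liver, so that 1 liver library reached the skin range. Without wild-type liver 2 the count was 5.

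In eyes the 10 genes were lower than in skin in both genotypes. In albino frogs all 10 were called lower in eyes than in skin, where 29.2% of 18309 genes were, from -4.16 ± 0.43 for NUSAP1 to -1.38 ± 0.34 for AURKB, and in each of the 10 every albino eye library lay below every albino skin library, as for 23.6% of all genes. With albino eye library 3 alone 6 of these were called. Of the 10, 9 were called lower in wild-type eyes than in wild-type skin, where 26.6% of 18338 genes were, from -2.19 ± 0.23 for NUSAP1 to -0.71 ± 0.22 for TPX2, and CDC20 was not called at -0.33 ± 0.30. The count was 5 without wild-type eyes 2, wild-type eyes 3 or wild-type skin 1. The difference between genotypes in this contrast is the eyes minus skin test above, in which TOP2A and TPX2 were called.

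Eyes against liver gave different calls in the 2 genotypes, apart from NUSAP1, which was called lower in both. The difference between genotypes in this contrast is the eyes minus liver test above. Only TOP2A and TPX2 were called there, and neither was with the replicate block. In albino eyes 5 of the 10 were called lower than in albino liver and 0 higher, where 30.3% of 17974 genes were called lower, namely TOP2A (-1.94 ± 0.51), TPX2 (-2.07 ± 0.56), NUSAP1 (-2.95 ± 0.47), BUB1 (-1.26 ± 0.48) and CDC20 (-1.55 ± 0.27). In wild-type eyes TOP2A (0.86 ± 0.33), AURKB (0.73 ± 0.23) and MAD2L1 (1.41 ± 0.46) were called higher than in wild-type liver, where 38.6% of 18047 genes were, and NUSAP1 lower (-1.31 ± 0.19), where 30.4% were. With the replicate as a block, whose numbers were read as pairing the albino libraries, BUB1 was not called in albino eyes (edgeR adjusted p = 0.0659) and MAD2L1 was (-1.36, edgeR adjusted p = 0.0313). The albino count of 5 was 8 without albino liver 2 and 1 with albino eye library 3 alone, and the wild-type count of 4 was 1 without wild-type eyes 1, wild-type liver 2 or wild-type liver 3, 2 without wild-type eyes 2 and 8 without wild-type liver 1. The log2 differences of all contrasts with liver also depended on scaling. In wild-type skin against liver the calls stayed the same with library totals, CDC20 again not being called. With library totals only AURKB was called higher (1.57) and NUSAP1 lower (-1.41) in albino eyes, where the log2 differences of BUB1 and CDC20 turned to 0.28 and 0.01, and 8 were called higher and 0 lower in wild-type eyes. Moving from TMM to library totals shifted the all-gene median to 1.30 for albino skin against liver, 1.00 for wild-type skin against liver, 1.79 for albino eyes against liver and 1.22 for wild-type eyes against liver, and left 10896, 8823, 12780 and 11051 genes called higher with 1706, 1756, 2342 and 2927 called lower, in that order. Under TMM the same 4 contrasts had 4064, 4282, 6841 and 6958 genes called higher with 3636, 3237, 5442 and 5484 called lower. Between eyes and skin the median moved to 0.40 in albino frogs and to 0.10 in wild-type frogs, with 6730 higher and 3799 lower calls in albino frogs, against 5515 higher and 5349 lower under TMM.

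Compared per length, the 3 most abundant of the 10 genes were AURKB, CDC20 and CDK1 in albino eyes and CDK1, AURKB and CDC20 in albino liver, and they were CDK1, AURKB and TOP2A in wild-type eyes, wild-type liver and both skin groups. In albino eyes TOP2A at 0.856 ± 0.227 FPKM was below CDC20 at 1.31 ± 0.0892 FPKM, and in wild-type eyes TOP2A at 5.59 ± 1.10 FPKM was above CDC20 at 2.41 ± 0.229 FPKM (SD, n = 3 each). BUB1 was the least abundant in both skin groups and in wild-type eyes. Among albino eye libraries, library 1 was highest for 5 genes, library 2 for 1 and library 3 for 4, with 770, 767 and 891 reads in all. Wild-type eyes 1, in contrast, was the highest wild-type eye library for all 10 genes, with 3464 reads in all, against 2470 and 2451 in wild-type eyes 2 and 3.

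How closely genes followed the 10 was measured as the root mean square difference, over the 18 libraries, between a gene's centred log2(CPM + 0.5) and the mean of the 10. Of the 10, TPX2 was nearest to their mean at 0.24, and CDC20 and NUSAP1 were farthest at 0.71 and 0.69. Over the 18145 other genes compared the median was 1.22. The nearest other gene was INCENP, the scaffold of the chromosomal passenger complex that binds AURKB, at 0.22, followed by RACGAP1, NCAPH, KNL1, NUF2, a locus described as UHRF1-like, KIF4A and NCAPH2, the last at 0.26. After centring within each of the 6 groups, so that differences between groups no longer count, the nearest were KIF20A at 0.13, RACGAP1, NCAPG2, INCENP, CCNE2, an uncharacterised locus, KIF4A and HELLS at 0.17, beside a median of 0.46 over all genes. Of the 10, BUB1 was nearest at 0.09 and CDC20 farthest at 0.37 within groups. Each of the 10 is part of the mean it is set against, so its distance is not like for like with that of other genes. All of these distances are descriptions over libraries that share tissue and sequencing depth, and no p-value is attached to them.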

How the data were processed

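RNA of eyes, back skin and liver was sequenced from total RNA with a VAHTS Universal kit, per the labels' protocols. The authors deposited whole-number read counts per gene, with no normalization, and FPKM values, which per the file headers sit beside them for the same libraries and are per gene length and library total. HISAT2 and HTSeq are named, without versions, in the submitters' processing notes. No source used here states the genome build, the strandedness or the treatment of multiply matching reads, and no coordinates or sequences are printed. A gene of the retina marker list is not reported here. All 24636 gene identifiers matched the RefSeq table of assembly ASM4218655v1, used for names and for which genes overlap.

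Counts were analysed with edgeR 4.0.16 in R 4.3.3: filterByExpr within each comparison, TMM scaling, robust quasi-likelihood tests, Benjamini-Hochberg adjustment over all genes tested at 0.05. The SE is the log2 difference divided by the square root of F. Interaction terms compared the genotype effect of one tissue with that of another. Levels are the deposited FPKM; CPM are over unscaled totals, and whether groups overlap was read from FPKM. Depth was 34.3 to 39.2 M counts per library, which at 3 to 50 reads per gene leaves wide counting error. Replicates differed beyond counting noise (chi-square per degree of freedom between 6.27 and 53.7), so none was counted as a duplicate. The tests were run on simulated data with known changes first. Of genes given a log2 change of 2 in size, 73.5% were called in eyes, 76.3% in liver and 29.8% in skin. Of those given a change of 1, 37.4%, 19.2% and 0% were called, in that order. Few genes were given a change of 2 or 1: 98 and 99 of 17569 in eyes, 97 and 99 of 14773 in liver and 94 and 97 of 16640 in skin. The share called depends on how many genes change, so these percentages may not hold for the data. A lack of calls, above all in skin, thus does not show that a gene is unchanged.

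The genes, lists and naming rule (all 10 genes, 7 relatives, the 3 smallest p of each list in eyes, called list genes elsewhere, the 8 nearest genes in pattern) were chosen with earlier results of these data known. Alternatives were DESeq2 1.42.0, limma 3.58.1 on log2 FPKM with 1 or 0.1 added and a minimum of 0.5 FPKM in 3 libraries, RLE scaling, library totals, no filter, no robust step, a replicate block, 1 fit of all 18 libraries, summing wild-type liver 2 and 3, leaving out each library, and, added after the data were seen, albino eye library 3 alone.

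Whether equal replicate numbers pair libraries was checked by correlating deviations from group means across genes. Same-numbered libraries had r of 0.195 to 0.286 for albino skin and liver, 0.185 to 0.281 for albino eyes and liver, 0.347 to 0.479 for wild-type eyes and skin and 0.160 to 0.425 for albino eyes and skin, each pair above 0.1. Differently numbered libraries reached at most -0.0178, -0.00556, -0.11 and 0.0599 in that order, so the numbers were read as pairing these libraries. A value above 0.1 alone does not mark a pair, since differently numbered albino and wild-type skin libraries reached 0.166. The tests reported still carry no replicate block, and values with the block stand beside the results whose calls it changes in these contrasts.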

Additional observations from a re-analysis of the deposited data

Results flagged for a closer look

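The genotype difference was called as differing between tissues for 2 genes, by a test of the difference itself. Of all genes tested, 3.42% were called for eyes minus liver and 0.991% for eyes minus skin. Without albino eyes 1 or albino eyes 2 neither gene was called in either test. For eyes minus liver it was -2.83 ± 0.67 for TOP2A and -2.60 ± 0.61 for TPX2 on the log2 scale. For eyes minus skin it was -2.79 ± 0.55 for TOP2A and -2.98 ± 0.51 for TPX2 (edgeR's quasi-likelihood test, 3 libraries in each of 4 groups). With the replicate as a block, neither was called for eyes minus liver (edgeR adjusted p = 0.0718 for TOP2A and 0.0550 for TPX2), and both were for eyes minus skin. In eyes alone TOP2A had a log2 difference of -2.97 and TPX2 one of -2.91. Of the alternatives run, TOP2A was called in 10 of 24 for eyes minus liver and 9 of 23 for eyes minus skin, and TPX2 in 10 of 24 and 14 of 23.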

How the results depend on the processing

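In eyes the count of 10 mitosis genes called lower was 10 under DESeq2, RLE scaling, no filter and no robust step, 8 with limma on log2(FPKM + 1), 7 with library totals, 7 with the replicate block, 5 in 1 fit of all 18 libraries, 5 to 8 on leaving out 1 library, and 1 with albino eye library 3 alone, whose spread is then assumed to match that of the wild-type libraries. In skin it was 0 under every alternative run. In liver it was 1 under DESeq2, library totals, no filter, limma with 1 or 0.1 added, the replicate block and 1 fit of 18, and 0 to 1 on leaving out 1 library. The cause of these moves was not tested, beyond the fewer libraries of some fits. For albino skin against liver the count of 2 was 6 under DESeq2, 10 with library totals, 1 with no filter, 10 and 10 with limma with 1 and 0.1 added, 9 with limma unfiltered, 4 with the replicate block, 6 in 1 fit of 18, and 0 to 9 on leaving out 1 library. For wild-type skin against liver leaving out 1 library gave 5 to 9. For albino eyes against liver the count of 5 was 8 under DESeq2, 2 with library totals, 1 in each limma fit, 8 in 1 fit of 18, 1 with albino eye library 3 alone, and 4 to 8 on leaving out 1 library. For wild-type eyes against liver the count of 4 was 8 with library totals, 9 in each of the 3 limma fits, 2 in 1 fit of 18, 1 with wild-type liver 2 and 3 summed, and 1 to 8 on leaving out 1 library. For albino eyes against skin the count of 10 was 6 with albino eye library 3 alone. For wild-type eyes against skin the count of 9 was 5 with library totals, 5 with limma unfiltered, 4 in 1 fit of 18, and 5 to 8 on leaving out 1 library. For eyes minus liver the count of 2 was 5 under DESeq2, 0 with library totals, 1 with no filter, 1 with the replicate block (MAD2L1, while TOP2A and TPX2 were not called), 0 in 1 fit of 18, 0 with wild-type liver 2 and 3 summed, 0 with albino eye library 3 alone, and 0 to 3 on leaving out 1 library. For eyes minus skin the count of 2 was 5 under DESeq2, 0 with library totals, 0 and 1 with limma with 1 and 0.1 added, 0 with limma unfiltered, 1 in 1 fit of 18, 0 with albino eye library 3 alone, and 0 to 3 on leaving out 1 library.

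The replicate block changed no count in wild-type skin against liver, albino eyes against liver or either eyes against skin contrast, and gave 5 in wild-type eyes against liver and 3 in eyes minus skin. Between genotypes equal numbers did not pair the libraries (r between -0.155 and 0.0572). Same-numbered libraries had r of 0.0567 to 0.372 for wild-type skin and liver and 0.0898 to 0.345 for wild-type eyes and liver. Only 2 same-numbered pairs of each were above 0.1, so whether the numbers pair these libraries stayed undecided.

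Some log2 differences that were not called changed sign. None of the values listed here whose sign changed was called, apart from CDC20 in albino skin against liver. On leaving out 1 skin library, TOP2A ran from -0.78 to 0.16, TPX2 from -0.56 to 0.36, CDC20 from -0.36 to 0.40 and CDK1 from -0.82 to 0.16. TPX2 in skin was also -0.0704, -0.11 and -0.0704 in the 3 limma fits and -0.10 with the replicate block. On leaving out 1 liver library, TOP2A ran from -0.996 to 0.29, AURKB from -0.67 to 0.12, BUB1 from -0.47 to 0.55, CDC20 from -0.0133 to 0.61, CDK1 from -1.36 to 0.45, CCNA2 from -2.20 to 0.47 and CDCA5 from -1.83 to 0.48. In liver BUB1 was also -0.0089 with limma unfiltered, and CDC20 -0.0573 with library totals and -0.00866 in the limma fits with 1 added, filtered or not. FZR1 in eyes ran from -0.00305 to 0.115 and was -0.12 with albino eye library 3 alone. CDC20 in wild-type skin against liver ran from -0.11 to 0.54 on leaving out 1 library and was called under limma with 0.1 added (1.03), and CDCA5 for eyes minus liver ran from -2.20 to 0.13. CDC20 in albino skin against liver was -6.567e-05 under TMM and was called with library totals (1.26) and in the filtered limma fits with 1 and 0.1 added (0.76 and 1.07).

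Of the 50 listed cell cycle genes called in eyes, counts were 24 to 42 on leaving out 1 library, at most 74 under DESeq2 and 0 with albino eye library 3 alone. By list, the kinases count of 5 was 0 to 2 on leaving out 1 library, 1 with the replicate block and at most 9 elsewhere, and the kinetochore count of 6 was 0 to 6 on leaving out 1 library, 2 with the block and 0 in 1 fit of 18 and at most 11 elsewhere. Over the alternatives other than albino eye library 3 alone, the spindle count of 17 was 8 to 21. The chromosome count of 9 was 4 to 14 and the replication count of 10 was 5 to 15 over the same alternatives. Over all genes the calls ranged over the alternatives from 62 to 3501 in eyes (1995 as reported), from 0 to 757 in skin (16) and from 134 to 1853 in liver (864). Counting error is largest for the rarest genes, such as CDCA5, with 3 reads in 1 albino liver library.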
